A study of Mus musculus with 3 samples.

Results

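The adhesion G protein-coupled receptors were examined in endothelial cells of the adult mouse kidney cortex. The members were all genes whose symbol starts with Adgr, together with Celsr1, Celsr2 and Celsr3. Of 31 such genes, 29 had a probeset assigned to them alone, out of 19938 genes on the array, and Adgrf3 and Adgrg5 had none. Each gene was taken at its probeset with the highest mean. The cells came from 3 samples of 1 group, replicates 1, 2 and 3, and each sample was made from 1 kidney. The adult mice were of the Tie2-GFP line, carrying the transgene Tg(TIE2GFP)287Sato on a mixed, mainly CD-1 background, with their sex given as unknown and no treatment named. In these mice GFP is driven by the promoter of Tek, the angiopoietin receptor of endothelium, and cortical cells that passed a mesh fine enough to hold back glomeruli were sorted for GFP. The values are log2 signals from Affymetrix Mouse Gene 1.0 ST arrays. With 1 group there were no conditions to compare, so each gene was set against a signal of 100 (6.64 on the log2 scale), once for a higher and once for a lower mean, 100 being the raw level of the study's own filter. "Above" and "below" refer to this one-sided moderated test of limma, with Benjamini-Hochberg adjusted p-values over all 35557 probesets.

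Adhesion receptors carry a long extracellular region joined to the 7 membrane helices of a G protein-coupled receptor. Many cut themselves at a proteolysis site in front of the first helix, and the stretch exposed there can act as a tethered agonist. They bind proteins of neighbouring cells and of the matrix, and signal through several G proteins. In vessels the best known are Adgrl4 (formerly Eltd1), a receptor enriched in endothelium, Adgrf5 (Gpr116), and Adgra2 (Gpr124), a co-receptor for WNT7 in brain angiogenesis.

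All 14 endothelial markers examined, among them Pecam1, Cdh5 and Erg, reached 100 in each sample and were above it. With replicate 1, 2 or 3 left out, 9, 10 and 8 of them passed the test. Over all 35557 probesets the number above also fell, from 7264 to 5190, 5320 and 4962. Genes of other cells were present too, and in bulk RNA fewer cells of a type and less RNA per cell cannot be told apart. The study itself described a minor contamination of its cortical endothelial cells, with a mainly proximal tubule profile. Of the proximal tubule markers 8 of 10 were above (5, 7 and 6 without replicate 1, 2 or 3), and 10 reached 100 in every sample. Of the distal nephron markers 6 of 10 were above (0, 3 and 1 without replicate 1, 2 or 3), and 7 reached 100 in every sample. Of the smooth muscle and pericyte markers 2 of 9 were above (1, 1 and 2), and 4 reached 100 in every sample. In another fit, 3 equal values took the median variance of probesets whose values differed. There 10 proximal tubule, 6 distal nephron and 3 smooth muscle and pericyte markers were above, with 21.1% of all genes. Of the podocyte markers 1 of 4 was above, Podxl, which endothelium also expresses. None of the 10 macrophage markers and none of the 9 lymphocyte and granulocyte markers measured was above 100 (0 at an unadjusted p under 0.05), and 10 and 8 of them were below. Replicate 3 was the highest sample for most distal nephron and most smooth muscle and pericyte markers, but not for most proximal tubule markers. Of the latter 4 of 10 were highest there, with summed signals of 14347, 12632 and 12745 in replicates 1, 2 and 3. Of the distal nephron markers 7 of 10 were highest there and 0 lowest, with summed signals of 3991, 2951 and 4374 in replicates 1, 2 and 3. Of the smooth muscle and pericyte markers 8 of 9 were highest there, and their summed signal stood at 3671, beside 1790 in replicate 1 and 1797 in replicate 2. Across probesets, which are not independent replicates, Pearson's r of the sample pairs ran from 0.941 to 0.950.

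Of the 29 adhesion receptor genes, 6 had a mean above a signal of 100, 22 had a mean below it and 1 was neither. The genes above were Adgrl4, Adgrl2, Adgrl1, Adgre5, Adgrf5 and Adgrg1, and Adgra2 was neither. Over all genes 22.9% were above 100 and 65.0% were below, beside 20.7% and 75.9% of the adhesion receptors, so the share above was close to that of the array as a whole. The same 6 genes also reached 100 in every sample, as 28.0% of all genes did. The median log2 signal of the family was 5.45, and 5.88 over all genes. The genes above belonged to 4 of the 9 subfamilies: 3 of 4 measured genes of subfamily L, 1 of 3 of E, 1 of 4 of F and 1 of 6 of G. Subfamilies A, B, C, D and V had 0 genes above, also at an unadjusted p under 0.05. Signals of different probesets depend on their probes, so these calls do not rank the receptors by abundance.

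**Figure D1:**
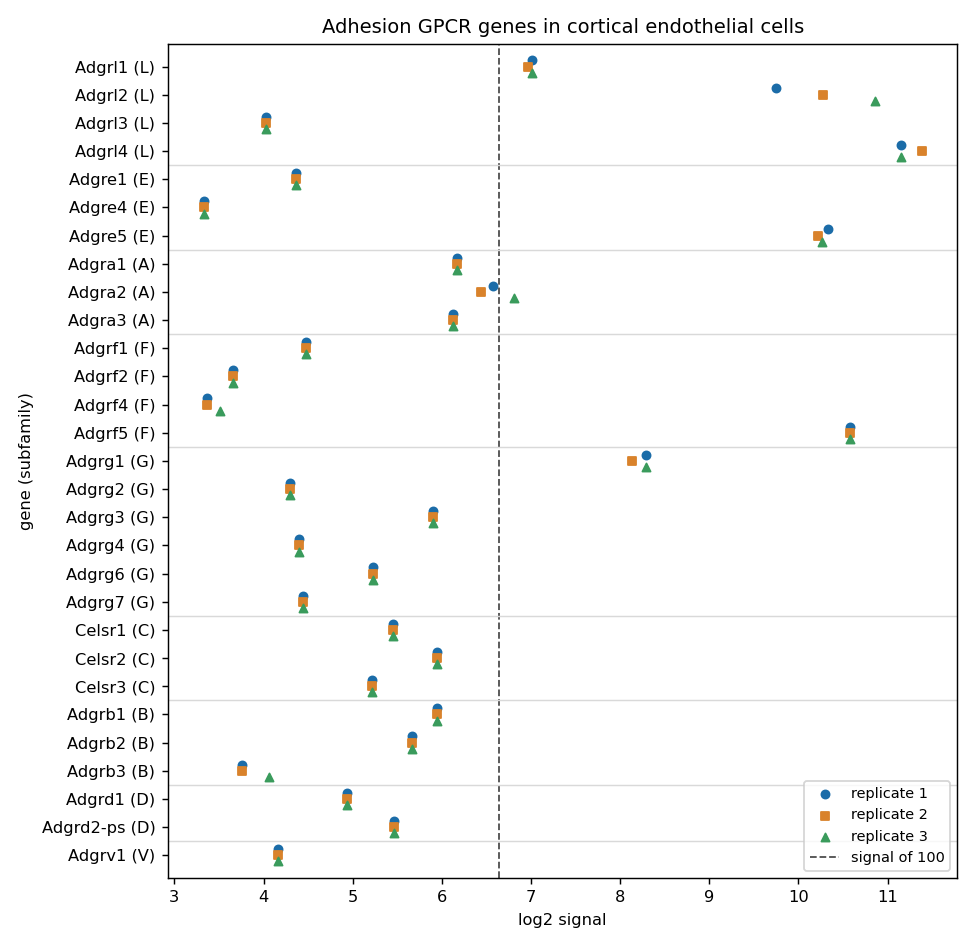
Log2 signal (x axis) of the 29 adhesion receptor genes (y axis, subfamily letter in parentheses) in replicates 1, 2 and 3, with the signal of 100 as a dashed line. The 3 points of Adgrl1, Adgrl2, Adgrl4, Adgre5, Adgrf5 and Adgrg1 lie right of the line, those of Adgra2 lie on both sides of it, and all others lie left of it.

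Subfamily L holds the latrophilins, first known as receptors of black widow toxin and now as adhesion molecules of synapses, together with the endothelial receptor Adgrl4. In replicates 1, 2 and 3 Adgrl4 measured 11.15, 11.38 and 11.15 on the log2 scale, which is 2280, 2667 and 2267 as signals. Its mean of 11.23 ± 0.13 (SD, n = 3) was above 100 (adjusted p = 0.000478 from limma). The 3 samples lay within 0.23 of each other on the log2 scale, far less than their distance from the limit. Adgrl1, the first latrophilin found, had 7.01, 6.96 and 7.01, a mean signal of 128 that lay just over the limit, at 6.996 ± 0.029 (SD, n = 3; adjusted p = 0.00364 from limma). This call was lost without replicate 1 (adjusted p = 0.0683) and without replicate 3 (adjusted p = 0.11). Without replicate 2 it held, but there the remaining values were equal, so that fit does not measure variation between replicates. Adgrl3, a latrophilin of neurons, was below 100, with all 3 values at 4.03 (limma adjusted p = 3.54e-10).

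Adgrl2 (Lphn2) was the adhesion receptor that varied most between the samples. At its probeset with the highest mean replicates 1, 2 and 3 read 9.74, 10.28 and 10.86 on the log2 scale, or signals of 857, 1241 and 1864. Replicate 3 was the highest and replicate 1 the lowest, 1.12 apart on the log2 scale. The mean of 10.29 ± 0.56 (SD, n = 3) was above 100 (adjusted p = 0.0121 from limma), and all 3 samples were far over the limit. Without replicate 1, 2 or 3 the adjusted p of this probeset was 0.0698, 0.141 and 0.117. Its SD was larger than that of 91.4% of the genes whose mean reached 100. Of all genes with such a mean, 27.5% had 3 equal values and so an SD of 0. The median SD of genes whose mean reached 100 was 0.10, and that of the 6 adhesion receptors above 100 was 0.07. Replicate 3 was also the sample in which most smooth muscle, pericyte and distal nephron markers were highest, as given above, and their part in the value of Adgrl2 was not tested.

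Adgrl2 was the only adhesion receptor with several probesets of its own, 8 in all, and these did not move together. Of them 5 were above 100, 1 was below and 2 were neither. Probeset 10502780 read 9.98, 10.42 and 8.95 in the same order, so that replicate 3 was its lowest sample, 1.48 under replicate 2 (adjusted p = 0.0291 for a mean above 100 from limma). Probeset 10502778 had 8.59, 8.99 and 7.28, also lowest in replicate 3, and was neither (adjusted p = 0.137). These 2 probesets went against 10502776, the probeset that stands for the gene, in which replicate 3 was the highest. Probeset 10502772 had 7.997, 9.06 and 8.92, with replicate 1 the lowest, and was above (adjusted p = 0.0406). Probesets 10502748 and 10502774 differed little between samples, at 7.73 in each sample and at 7.83 ± 0.09 (SD, n = 3), and both were above. Probeset 10502766 had 7.58, 5.46 and 6.38 and crossed the limit between samples, and 10502770 was below at 3.78 ± 0.22 (SD, n = 3; adjusted p = 0.000837). The sample with the highest Adgrl2 signal thus depended on the probeset, while 6 of the 8 probesets had 100 or more in every sample.

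**Figure D2:**
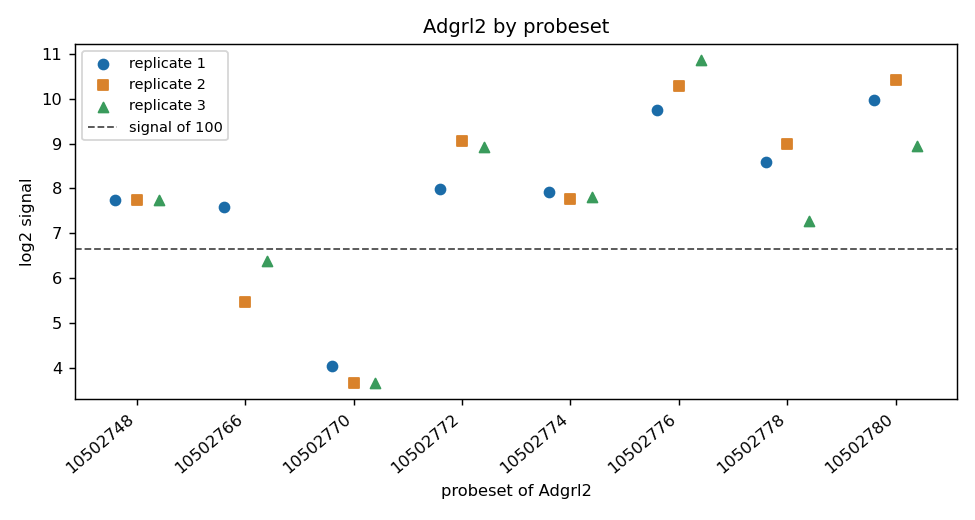
Log2 signal (y axis) of the 8 probesets of Adgrl2 (x axis) in replicates 1, 2 and 3, with the signal of 100 as a dashed line. Replicate 3 is highest at 10502776 and lowest at 10502778 and 10502780, and the 3 points coincide at 10502748.

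Subfamily E holds receptors with EGF repeats, mostly of leukocytes. Adgre5 (Cd97), a receptor of leukocytes and other cells that binds CD55, measured 10.33, 10.22 and 10.26 on the log2 scale in the 3 replicates, or signals of 1289, 1196 and 1227. Its mean was 10.27 ± 0.05 (SD, n = 3; adjusted p = 0.000132 from limma), and it stayed above whichever replicate was left out. Adgre1 (Emr1), the gene of the macrophage antigen F4/80, was below 100 with 3 values of 4.36 (limma adjusted p = 3.54e-10). Adgre4, a receptor of myeloid cells, was below at 3.33 in each (adjusted p = 4.56e-10). Beside these values, the summed signal of the 10 macrophage markers was 416, 435 and 434 in replicates 1, 2 and 3, with Cd68 at 5.19 and Csf1r at 4.92 on the log2 scale in each sample. That of the 9 lymphocyte and granulocyte markers was 267, 250 and 355, with Ptprc, the common leukocyte antigen, at 5.12 in each. Nkg7, a gene of cytotoxic lymphocytes, was the exception among these markers, with 4.84, 5.03 and 7.04.

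In subfamily F, Adgrf5 (Gpr116), which restrains surfactant secretion in the lung and is also found in endothelium, measured 10.58 on the log2 scale in all 3 samples, a signal of 1529. It was above 100 (adjusted p = 1.68e-06 from limma). Its values were equal to the 5 decimals given, so the SD was 0 and the p small. With the median variance of probesets whose values differed in its place, the adjusted p was 0.000183. The other 3 measured genes of the subfamily were below: Adgrf1, a receptor of the lipid amide synaptamide, at 4.47 in each sample, Adgrf2 at 3.66 in each, and Adgrf4 at 3.41 ± 0.09 (SD, n = 3; adjusted p = 9.54e-05 from limma). Adgrf5 is also known from acid-secreting intercalated cells of the collecting duct. Of the 10 distal nephron markers 6 were above 100 (0, 3 and 1 without replicate 1, 2 or 3). Foxi1, the marker among them known from intercalated cells, was below, at 5.77, 5.77 and 6.22 in replicates 1, 2 and 3 (limma adjusted p = 0.0215). That call was lost without replicate 1 or 2 (limma adjusted p = 0.115 in both fits). The part of distal nephron cells in the value of Adgrf5 was not tested.

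In subfamily G, Adgrg1 (Gpr56), which binds collagen III and transglutaminase 2 and shapes the brain cortex in development, had log2 signals of 8.29, 8.13 and 8.29, or signals of 313, 281 and 313. Its mean of 8.24 ± 0.09 (SD, n = 3) was above 100 (adjusted p = 0.00175 from limma), with adjusted p = 0.081 without replicate 3. The other 5 measured genes were below, each with the same value in all 3 samples. Adgrg3 (Gpr97), a receptor of granulocytes, had 5.90, Adgrg6 (Gpr126), needed for myelination of peripheral nerves, had 5.22, and Adgrg2 (Gpr64), a receptor of the epididymis, had 4.30. Adgrg4 had 4.40 and Adgrg7 had 4.44.

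Subfamily A was close to the limit. Adgra2, the WNT7 co-receptor of brain vessels, measured 6.58, 6.44 and 6.81 in the 3 replicates, on both sides of the limit. Its mean of 6.61 ± 0.18 (SD, n = 3) was neither above nor below 100 (adjusted p = 0.539 for a mean below it from limma). Replicate 3 alone was over the limit, and it was also the sample in which most smooth muscle, pericyte and distal nephron markers were highest, whose part was not tested. Adgra1 and Adgra3 were below, at 6.17 and 6.12 in each sample. With the spread of the others, both were still below (adjusted p = 0.0146 and 0.0112).

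The remaining subfamilies were below 100 throughout. Celsr1, Celsr2 and Celsr3, the seven-pass cadherins that set planar cell polarity, had log2 signals of 5.45, 5.94 and 5.21 in each sample. Adgrb1, a receptor for dying cells displaying phosphatidylserine, had 5.94, and Adgrb2 had 5.66, both equal in the 3 samples. Adgrb3, a synaptic receptor of C1q-like proteins, had 3.76, 3.76 and 4.06 (adjusted p = 0.000547 from limma). Adgrd1, a receptor that raises cAMP, had 4.93 in each, and the pseudogene Adgrd2-ps had 5.46. Adgrv1, the very large receptor of hair cell stereocilia, had 4.16. Of the 22 genes below 100, 16 had a signal under 50, and 20 had 3 equal values. Over all 29 adhesion receptors 72.4% had 3 equal values, beside 51.2% of all genes. In all of the 22 the call held when such values took on that spread, where 62.2% of all genes were below, as did the 6 calls above (21.1% of all genes).

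Several adhesion receptor genes are neighbours on their chromosome, and neighbours did not always share a call. By the RefSeq gene order, 0 protein-coding genes lie between Adgrl2 and Adgrl4 on chromosome 3, and both were above 100. The same holds for Adgre5 and Adgrl1 on chromosome 8. On chromosome 17, Adgrf1 and Adgrf5 are likewise adjacent, yet Adgrf1 was below and Adgrf5 above. On chromosome 8, Adgrg1 lies between Adgrg5, which has no probeset of its own, and Adgrg3, and of these Adgrg1 was above and Adgrg3 below.

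For the genes above 100, the 250 bases before each start in RefSeq (GRCm38.p6) that held a motif defined below are shown. The second start of Adgrg1, which held none, is not printed. ETS factors bind around a GGAA core, and the study had looked at conserved ETS sites in promoters of genes raised in embryonic endothelial cells. Its genes with such a site included Gpr97 (Adgrg3), which was below 100 here. Conservation was not considered for the motifs marked here. Letters in capitals mark CAGGAA or CCGGAA on either strand (TTCCTG or TTCCGG when read on the other), and no window shown held both motifs.
Adgrl4 (chr3:151437632-151437881, plus strand): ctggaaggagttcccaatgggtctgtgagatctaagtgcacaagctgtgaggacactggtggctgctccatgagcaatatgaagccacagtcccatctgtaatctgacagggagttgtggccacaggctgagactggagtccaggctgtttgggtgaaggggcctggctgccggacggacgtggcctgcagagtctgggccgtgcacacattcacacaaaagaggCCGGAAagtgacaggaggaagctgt
Adgrf5, first start (chr17:43360181-43360430, plus strand): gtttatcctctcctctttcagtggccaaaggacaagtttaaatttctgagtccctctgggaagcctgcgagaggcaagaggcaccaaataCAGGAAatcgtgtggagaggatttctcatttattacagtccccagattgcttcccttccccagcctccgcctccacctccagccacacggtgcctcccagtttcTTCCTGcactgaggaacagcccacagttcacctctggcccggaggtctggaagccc
Adgrf5, second start (chr17:43389216-43389465, plus strand): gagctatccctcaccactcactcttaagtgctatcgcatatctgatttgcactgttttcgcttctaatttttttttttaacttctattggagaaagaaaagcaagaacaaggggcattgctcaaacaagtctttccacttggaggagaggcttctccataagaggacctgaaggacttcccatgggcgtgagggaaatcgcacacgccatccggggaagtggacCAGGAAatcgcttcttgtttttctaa
Adgrl2 (chr3:148954636-148954885, minus strand): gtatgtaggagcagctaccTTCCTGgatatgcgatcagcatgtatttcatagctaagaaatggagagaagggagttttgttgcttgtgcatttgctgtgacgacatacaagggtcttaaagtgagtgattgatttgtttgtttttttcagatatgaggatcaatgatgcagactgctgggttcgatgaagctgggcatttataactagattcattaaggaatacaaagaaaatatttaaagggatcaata
Adgrl1 (chr8:83899848-83900097, plus strand): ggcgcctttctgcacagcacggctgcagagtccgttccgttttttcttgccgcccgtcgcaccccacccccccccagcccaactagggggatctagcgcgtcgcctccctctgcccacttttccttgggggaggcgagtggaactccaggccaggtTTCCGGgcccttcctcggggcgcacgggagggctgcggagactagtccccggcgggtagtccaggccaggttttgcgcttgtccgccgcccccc
Adgrg1, first start (chr8:94976859-94977108, plus strand): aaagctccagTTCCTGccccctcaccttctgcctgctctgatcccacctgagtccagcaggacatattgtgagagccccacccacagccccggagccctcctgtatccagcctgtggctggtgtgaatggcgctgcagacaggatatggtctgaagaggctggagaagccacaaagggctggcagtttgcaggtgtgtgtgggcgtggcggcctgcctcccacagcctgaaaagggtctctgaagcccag
All 5 genes above 100 with a promoter in the table held a motif at a start: CCGGAA before Adgrl4 and Adgrl1, and CAGGAA before Adgrf5, Adgrl2 and the first start of Adgrg1. The second start of Adgrg1 had none, and Adgre5 had no promoter in the table. Of 16 genes below 100 with a promoter, 5 held either motif, among them the neighbours Adgrf1 and Adgrg3. By window, 6 of 7 above and 5 of 18 below had a match. Over all 32851 promoter windows of this length, 35.1% held either motif, 25.7% CAGGAA and 12.0% CCGGAA. By gene, 38.2% of 27025 genes held either motif in at least 1 window. In Adgrl4 the match began 25 bases before the start, and in Adgrf5 160 and 56 bases before the first start and 26 before the second. A match describes the letters only and does not show binding.

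The ligands and partners of the receptors were examined from lists of textbook genes. Of 9 measured ligands of latrophilins, 2 were above 100 and 7 were below. Tenm4, a teneurin, had 6.80 ± 0.01 (SD, n = 3; adjusted p = 0.00112 from limma), and Flrt1 had 6.75 in each sample (adjusted p = 2.02e-05). The call of Tenm4 was lost without replicate 3 (adjusted p = 0.0667), and neither call held when equal values took on the spread of the others (adjusted p = 0.202 and 0.75). Tenm1, Tenm2 and Tenm3 were below, at 4.63, 5.86 and 4.76 in each sample, and Flrt2 was below at 6.09 ± 0.20 (SD, n = 3), a call lost without replicate 1 or 2 (limma adjusted p = 0.0904 in both fits).

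Of 20 partners of other adhesion receptors, 6 were above 100, 11 were below and 3 were neither. Itgb1, the beta chain of integrins that bind CD97, had 10.77 in each sample. Tgm2, the transglutaminase that binds GPR56, had 8.01 in each, and Col4a1, a basement membrane collagen that binds GPR126, had 7.20 in each, all above 100. Itga5, an alpha chain that pairs with Itgb1, was above at 6.71 in each, close to the limit, and was neither when equal values took the spread of the others (adjusted p = 1.0). Cd55, the complement regulator that is the ligand of CD97, was below at 5.19 in each sample, Col3a1, the collagen ligand of GPR56, was below at 6.001, Lama2, a laminin ligand of GPR126, at 5.78, and Sftpd, surfactant protein D, at 4.99. Thy1 had 6.03, 6.28 and 7.04, Plxnb2 had 6.44, 6.33 and 6.76, and Prnp had 6.44, 6.44 and 6.70 in replicates 1, 2 and 3. In these 3 genes replicate 3 was the highest sample, and none passed the test.

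Of the 8 genes of the WNT7 receptor complex in which Adgra2 acts, 5 were above 100, 2 were below and 1 was neither. Reck, the GPI-anchored partner of ADGRA2, was above with 3 values of 7.85 (limma adjusted p = 1.68e-06), as was the receptor Fzd4 at 8.02. Ctnnb1, the gene of beta-catenin, had 9.05 ± 0.0004 (SD, n = 3), Dlg1, a scaffold that binds ADGRA2, had 8.40 ± 0.08, and the co-receptor Lrp5 had 6.79 in each, all above. Lrp5 was neither with the spread of the others (adjusted p = 0.534). The ligands Wnt7a and Wnt7b were below, at 4.91 and 5.81 in each sample. Lrp6 had 8.25, 7.96 and 7.42, each over the limit, and was neither by the test (limma adjusted p = 0.0567). It was above in the fit where equal values took the spread of the others (limma adjusted p = 0.0162).

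Among 10 planar cell polarity partners of the Celsr genes, 1 was above 100, 8 were below and 1 was neither. The gene above was the Frizzled receptor Fzd6, at 7.83 in each sample. Fzd3 had 5.49 ± 0.11 (SD, n = 3), Vangl1 had 6.41 ± 0.06, and Vangl2 and Prickle1 had 5.74 and 6.48 in each sample, all below. Vangl1 was neither without replicate 1 or 2 (adjusted p = 0.0668 and 0.0669), and Prickle1 was neither with the spread of the others (adjusted p = 0.177). Dvl3 had 6.998, 6.46 and 6.50 and was neither. Of the partners of Adgrv1, Pdzd7 was measured and below at 6.39 in each sample, a call lost with the spread of the others (adjusted p = 0.0706).

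G proteins and their effectors, through which such receptors can signal, were measured as well. Of 12 measured G protein alpha subunits, 5 were above, 6 were below and 1 was neither. Gna13, which links receptors to small GTPases of the cytoskeleton, had 7.85 ± 0.12 (SD, n = 3; adjusted p = 0.00524 from limma). Gnai2 had 10.56 ± 0.06 (adjusted p = 0.000153), Gnai3 had 8.79 in each sample, Gnaq had 8.13 ± 0.05 and Gna11 had 8.75 ± 0.18, all above. Gna12, the relative of Gna13, was below at 6.54 ± 0.02 (limma adjusted p = 0.00823), and neither without replicate 2 (0.0658) or without replicate 3 (0.0951). It was also neither in the fit where equal values took the spread of the others (limma adjusted p = 0.155), though its own values differed. Gnal, Gnao1 and Gnaz, alpha subunits known from neurons, were below at 3.68, 5.29 and 5.83 in each sample, and Gnai1 had 6.55 ± 0.10 and was neither. Gnas had no probeset of its own. Without replicate 1 only 3 were above, Gna13 and Gna11 having been lost, and without replicate 3 only 2, Gnaq being lost as well.

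Of 9 arrestins and small GTPase effectors, 5 were above 100, 1 was below and 3 were neither. Rhoa had 10.99 ± 0.18 (SD, n = 3; adjusted p = 0.000923 from limma), and Rac1 had 10.71 ± 0.07 (adjusted p = 0.00016). Arhgef12, an exchange factor that acts downstream of Gna13, had 8.85 in each sample, and Dock1, which acts with Elmo1 in the engulfment of dying cells, had 7.65. Arhgef11 was above at 6.73 in each, a call lost with the spread of the others (adjusted p = 0.914). Arrb2 was below at 5.82. Arrb1 had 6.77, 7.04 and 6.57, Arhgef1 had 7.69, 7.05 and 7.04, and Elmo1 had 6.50, 6.39 and 6.20, and none of them passed the test.

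The secretin-type receptors are peptide hormone receptors whose membrane helices are the closest relatives of those of the adhesion class. Of 15 genes 3 were above 100 (20%) and 12 were below (80%). Over all genes 22.9% were above and 65.0% below. The share above was thus near that of the array as a whole, as it was for the adhesion receptors. Calcrl, the receptor of adrenomedullin in endothelium, had 10.82, 11.05 and 10.82 (adjusted p = 0.000566 from limma). Pth1r, the parathyroid hormone receptor of the proximal tubule, had 7.38 in each sample, and Ghrhr had 6.91 in each, both above, though Ghrhr was neither with the spread of the others (adjusted p = 0.188). Calcr had 5.14 ± 0.10 (SD, n = 3), Crhr1 and Crhr2 had 5.91 and 5.78 in each sample, and Gcgr had 6.24 ± 0.19, all below. The call of Gcgr was lost without replicate 1 or 2 (limma adjusted p = 0.12 in both fits).

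**Figure D3:**
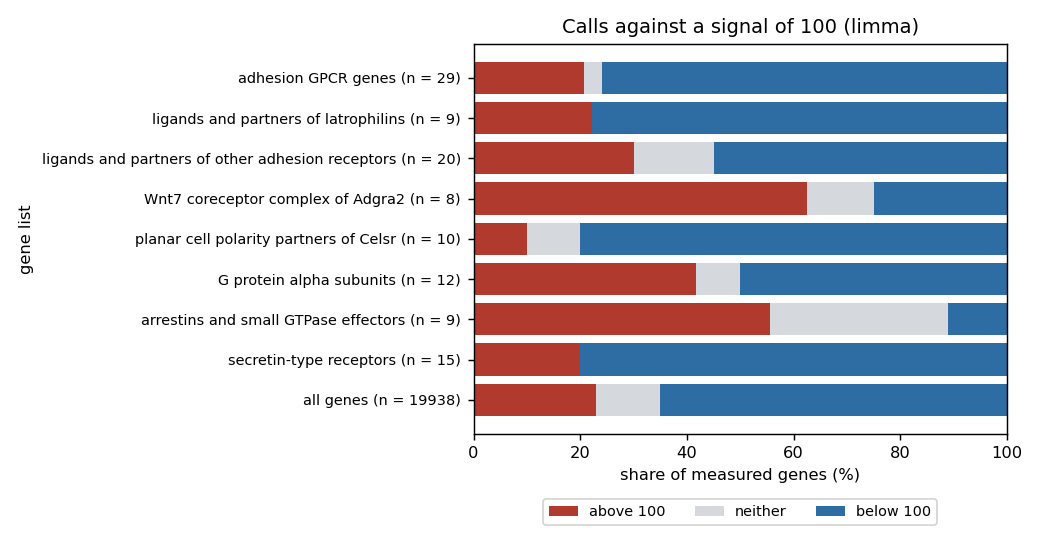
Share of measured genes (x axis, percent) above a signal of 100, neither, or below it by limma, for each gene list (y axis, number of measured genes in parentheses). Adhesion receptors (6 of 29 above), secretin-type receptors (3 of 15) and all genes (4569 of 19938) have similar shares above, and the WNT7 complex (5 of 8) and the arrestins and small GTPase effectors (5 of 9) have larger ones.

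Between the samples, the adhesion receptors above 100 other than Adgrl2 stayed within 0.23 of each other on the log2 scale. Taken as differences from the mean of each gene, the 6 genes had medians of 0.01, -0.03 and 0.01 in replicates 1, 2 and 3. The endothelial markers had medians of 0.03, 0.0047 and -0.03, with 7 of 14 lowest in replicate 3, and a summed signal of 13399, 13712 and 11312. The smooth muscle and pericyte markers had -0.15, -0.30 and 0.45. Adgrl2, with -0.55, -0.02 and 0.57, was the only one of the 6 receptors that was highest in replicate 3 alone, and 2 of its other probesets were lowest there.

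**Figure D4:**
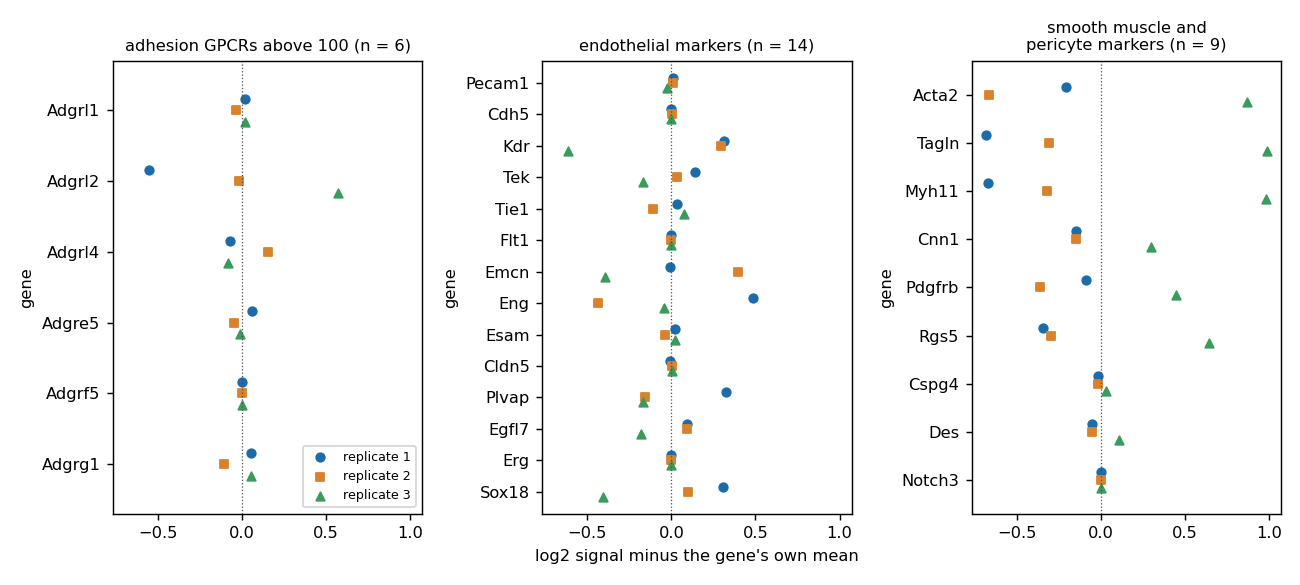
Log2 signal minus the gene's own mean (x axis) in replicates 1, 2 and 3 for the 6 adhesion receptors above 100, the 14 endothelial markers and the 9 smooth muscle and pericyte markers (y axes). Adgrl2 spans -0.55 to 0.57, the other 5 receptors lie near 0, and 8 of the 9 smooth muscle and pericyte markers are highest in replicate 3.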

How the data were processed

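RNA from 3 samples of sorted cortical endothelial cells, each from 1 kidney, was amplified in 1 round and hybridized to Affymetrix Mouse Gene 1.0 ST arrays. The authors deposited log2 signals, summarised per probeset and normalized between arrays. The study names RMA, and the submitters' processing notes name Affymetrix Expression Console. Which arrays were normalized together is not given in the sources used here. In all, the table held 35557 probesets and 0 missing values, and in 40.5% of probesets the 3 values were equal in all 5 decimals. By the platform annotation 21789 probesets had 1 gene, 1621 several and 12147 none, and only those with 1 gene were named. Arrays give no counts, and their number limits the precision.

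An intercept-only model was fitted to every probeset (limma 3.58.1, R 4.3.3) as log2 signal minus log2 of 100, with a variance trend (residual degrees of freedom 2, prior 0.297). The fit was tested on simulated data whose spreads came from probesets with differing values, so that test did not cover 3 equal values. Adjusted p under 0.05 was called. The p-values measure the spread between these samples, except where all values in a fit were equal and the SD was 0. This was so for 3 equal values. It was also so where the values remaining without a replicate were equal, as for Adgrl1 and Adgrg1 without replicate 2. In such fits the p-values rest on the variance trend fitted over all probesets, and are not a measure of variation between replicates. For Adgrl3 the limma adjusted p of 3.54e-10 became 0.000153 when equal values took the spread of the others. That setting changed the fitted prior (1.46 degrees of freedom), so it also moved the p-values of genes with differing values, such as Gna12 and Tenm4. Summaries used pandas 2.3.3 and numpy 2.4.6 in Python 3.11.15. The alternatives were limits of 50 and 200, no test, quantile or median scaling, no trend, another spread for equal values, a filter at 50, gene medians, probesets of several genes, and leaving out each replicate. All adhesion receptors were named, and of each partner list up to 4 genes above and 4 below in the order written, with every gene of a count of 5 or fewer. The members, lists and promoter motifs were chosen with earlier results of these data known.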

Additional observations from a re-analysis of the deposited data

How the results depend on the processing

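The 6 calls above and 22 below among the adhesion receptors were unchanged in number under quantile normalization, a shift to the same median, no variance trend, the spread of other probesets for equal values, the median over probesets, and the use of probesets of several genes. With a limit of 50, 13 were above, with 200, 5 were, and with a mean of 50 or more required, 6 were below, because fewer genes were tested. Over all 35557 probesets, 7264 were above at 100, 15254 at 50 and 3395 at 200. With the filter, 5596 of 18218 probesets were below. The number above thus changed over the whole array as well as in the members and lists. Leaving out a replicate gave 3 to 5 above and 22 below. Over all probesets, 5190, 5320 and 4962 were above without replicate 1, 2 or 3, beside 7264 with all samples. Those below were 21171, 21121 and 20452, beside 22533. Relative to a limit of 50, genes that had been below lay above it by 0.53 (Adgra1), 0.48 (Adgra3), 0.30 (Adgrb1), 0.019 (Adgrb2), 0.26 (Adgrg3) and 0.30 (Celsr2) on the log2 scale, and Adgra2 by 0.96. Relative to 100, Adgra2 lay between -0.134 (without replicate 3) and 0.047 (without replicate 2), and -0.0351 with all samples. Adgrl1 fell short of a limit of 200 at -0.65. For the lists, the number above at a limit of 50 was 5 for ligands of latrophilins, 11 for partners of other receptors, 7 for planar cell polarity, 1 for Adgrv1, 9 for G protein alpha subunits, 9 for effectors and 10 for secretin-type receptors. At a limit of 200 it was 0, 2, 3 and 1 for ligands of latrophilins, partners of other receptors, effectors and secretin-type receptors. For ligands of latrophilins it was 1 under quantile normalization, 0 with the spread of other probesets, 1 for the median over probesets, and 1 to 2 without a replicate. For G protein alpha subunits it was 2 to 5 without a replicate. The causes were not tested. No paired analysis was possible because there was 1 group. A signal that no probeset shows above 100 sets no bound on the transcript.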

Other observations

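Many low values in the table are held by several probesets. In 35.6% of the 35557 probesets all 3 values, to 5 decimals, were also those of another probeset, and up to 157 probesets shared the same 3 values. The share was 45.6% among probesets with a mean under a signal of 100 and 11.4% among the others. Of the 22 adhesion receptors below 100, 19 had 3 values that another probeset also held, and of the 6 above 100, 0 did. The 4.36 of Adgre1 stood in all 3 samples of 139 other probesets, the 3.66 of Adgrf2 in those of 134, and the 4.44 of Adgrg7 in those of 123. No order was read among these low values.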
